A study of Macaca fascicularis with 3 samples.

Results

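The miRNAs described here are those whose names carry the stems miR-506 to miR-510, miR-513 or miR-514, the members of an X-linked miRNA cluster, as they were counted in the kidney cortex of the cynomolgus monkey (Macaca fascicularis). They were chosen by name from the raw count table, and 10 of its 432 mature miRNAs matched: miR-507, miR-508-3p, miR-509, miR-510-5p, miR-513a, miR-513b and both arms of the miR-514a and miR-514b hairpins (all names carry the species prefix mfa-, left out below). No name with the stem miR-506 is analysed here. Small RNA was sequenced from frozen cortex of 3 naïve, 2 to 3 year old animals, with 1 library per animal and no treated group, so the comparisons are between miRNAs and between animals. The labels give neither sex nor any batch, and 1 library per animal does not separate an animal from its library.

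In human the cluster lies on the X chromosome between SLITRK2, a neuronal membrane protein gene, and FMR1, the gene silenced in fragile X syndrome. In the RefSeq gene table of the assembly T2T-MFA8v1.1 both genes are on chromosome X, with 1 protein-coding gene between them, and the positions of the miRNA genes themselves were not analysed here. The cluster is known for fast evolution, with copies gained and lost between mammals, and for expression mainly in the testis. A miRNA hairpin is cut into a 5p and a 3p strand, either of which can be loaded into Argonaute and guide repression of messenger RNAs through its seed. In the kidney, miR-508-3p, miR-509 and miR-514a are known as miRNAs that are lower in clear cell renal carcinoma than in normal cortex. The mature sequences were not analysed here, so no seed or base composition is compared.

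Counts assigned to listed miRNAs totalled 4305977 in animal 1, 4707892 in animal 2 and 3957188 in animal 3. Levels are given as CPM, counts per 1000000 of these listed counts, divided by a TMM (trimmed mean of M values) factor for each library. A mature miRNA is read whole, so counts were not divided by length. A floor of 3 counts equalled 0.689, 0.606 and 0.806 TMM-scaled CPM in animals 1, 2 and 3. The 5 names of miRNAs enriched in kidney (miR-204, miR-192, miR-194, miR-215) summed to between 53073 and 61982 CPM per library. The epididymal cluster that lies beside these genes in human (miR-888, miR-890, miR-891 and miR-892) matched 0 names. The library of animal 3 stood apart most: spans of more than 2-fold were found for 156 of 391 miRNAs with it and for 35 of 400 without it. They were found for 92 of 391 without animal 1 and for 124 of 386 without animal 2, and fewer animals must give narrower ranges. Scaling by library totals in place of TMM would shift all levels of animal 3 against animal 2 by 0.16 on the log2 scale.

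The cluster as a whole was a minor part of the cortex miRNAs. Its 10 names summed to 1560 counts in animal 1, 790 in animal 2 and 619 in animal 3. As TMM-scaled CPM these sums were 358, 160 and 166, a mean of 228 ± 113 (SD, n = 3). Animal 1 was therefore 2.25-fold above the lowest animal, while animals 2 and 3 were close. The Wilson 95% intervals of the unscaled shares were 345 to 381, 157 to 180 and 145 to 169 CPM, so that animal 1 lay outside the counting error of the other libraries and these overlapped each other. The intervals cover counting error only, since there is 1 library per animal. They treat each read as a separate count, although the reads carry no molecular identifiers. The whole cluster together would take rank 136 among the listed miRNAs, just below let-7a-3p with a mean of 234 CPM. In bulk tissue, fewer cells of a type and less RNA per cell cannot be told apart.

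**Figure D1:**
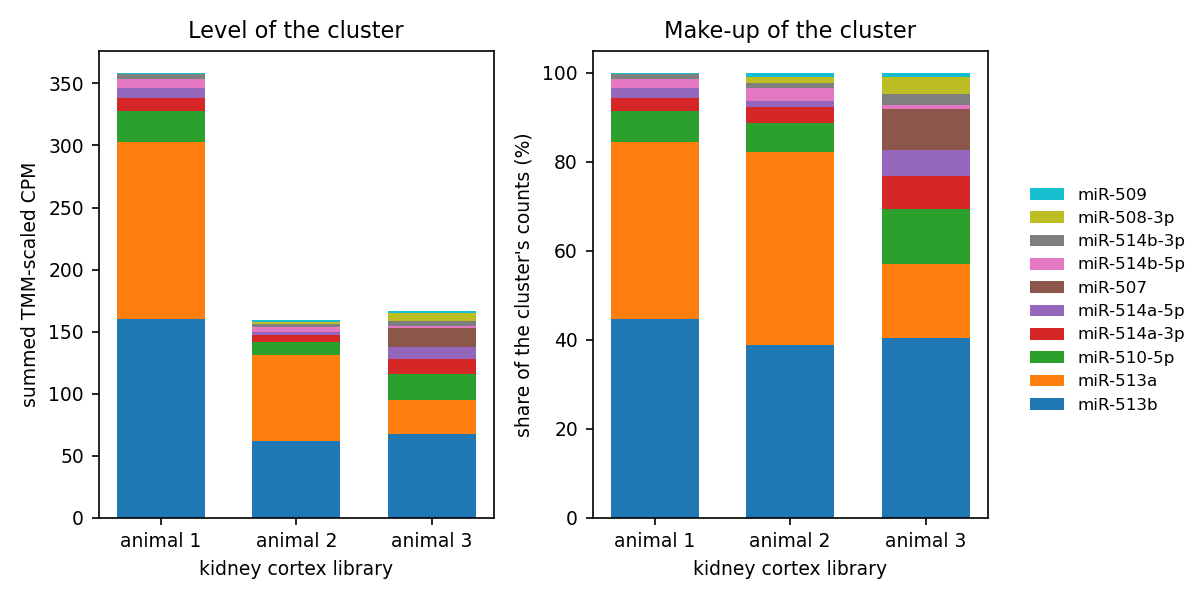
Summed TMM-scaled CPM of the 10 cluster miRNAs in each library (left) and the share of each miRNA in the cluster's counts (right, %); colours stand for miRNAs. The sum is 358 in animal 1 against 160 and 166 in animals 2 and 3, and the miR-513 names hold 84.5% and 82.2% of the cluster in animals 1 and 2 but 57.0% in animal 3.

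The make-up of the cluster also differed between libraries. The miR-513 names held 84.5% of the cluster's counts in animal 1, 82.2% in animal 2 and 57.0% in animal 3, with Wilson 95% intervals of 82.6 to 86.2, 79.3 to 84.7 and 53.1 to 60.9. The miR-514 names held 8.46% (7.18 to 9.95), 8.99% (7.19 to 11.2) and 16.6% (13.9 to 19.8). The remaining names, miR-507, miR-508-3p, miR-509 and miR-510-5p, held 7.05% (5.88 to 8.43), 8.86% (7.07 to 11.0) and 26.3% (23.0 to 29.9). For all 3 groups of names the intervals of animals 1 and 2 overlapped and that of animal 3 lay apart. Shares of 1 whole are tied to each other. As levels, the miR-514 names summed to 30.3, 14.3 and 27.7 TMM-scaled CPM, so they were not higher in animal 3 than in animal 1. The miR-513 names summed to 303, 131 and 94.9, and the remaining names to 25.3, 14.1 and 43.8. By arm, the 5 names that are 5p strands or are paired with a human 5p strand by the authors held 95.6% of the cluster in animal 1, 93.0% in animal 2 and 76.3% in animal 3.

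miR-513b and miR-513a were the most abundant members. The miR-513 family is found in primates, and its 5p strand is known to repress the immune checkpoint ligand PD-L1 in human bile duct cells. miR-513b had 697, 307 and 250 counts in animals 1, 2 and 3, or 160, 62.0 and 67.2 TMM-scaled CPM, a mean of 96.4 ± 55.2 (SD, n = 3) that was 64.2 without animal 1. It was high in animal 1 and alike in the other animals. The ratio of animal 1 to animal 2 was 2.58 (exact 95% counting interval 2.26 to 2.96) and that of animal 2 to animal 3 was 0.923 (0.778 to 1.09).

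miR-513a had 621, 342 and 103 counts, or 143, 69.1 and 27.7 TMM-scaled CPM, a mean of 79.8 ± 58.2 (SD, n = 3) that was 48.1 without animal 1. All 3 animals stood apart here, with animal 1 at 5.15 times animal 3 (exact 95% counting interval 4.18 to 6.41) and animal 2 at 2.50 times animal 3 (2.00 to 3.14). Of the counts of both miR-513 names, miR-513a took 47.1% in animal 1, 52.7% in animal 2 and 29.2% in animal 3, with Wilson 95% intervals of 44.4 to 49.8, 48.9 to 56.5 and 24.7 to 34.1. The balance of these names thus lay near equal in animals 1 and 2 and toward miR-513b in animal 3. The authors paired both names with 1 human miRNA, miR-513c-5p, and the treatment of reads that match both is not given in the sources used here, so the split between them is uncertain. The sum of the muscle names (miR-1 and miR-133, 8 names) was also highest in animal 1, at 618, 476 and 450 CPM in animals 1, 2 and 3. Not every muscle name followed it. miR-133a had 19, 23 and 33 counts, and miR-206, which is outside the sum, had 11, 10 and 16. The liver name miR-122a-5p had 8.83, 7.01 and 4.04 CPM. Names of neither miR-124 with miR-9 (123, 131 and 107 CPM) nor the leucocyte miR-223 with miR-142 (1106, 1270 and 882 CPM) were highest in animal 1. The part of any of these in the differences was not tested.

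**Figure D2:**
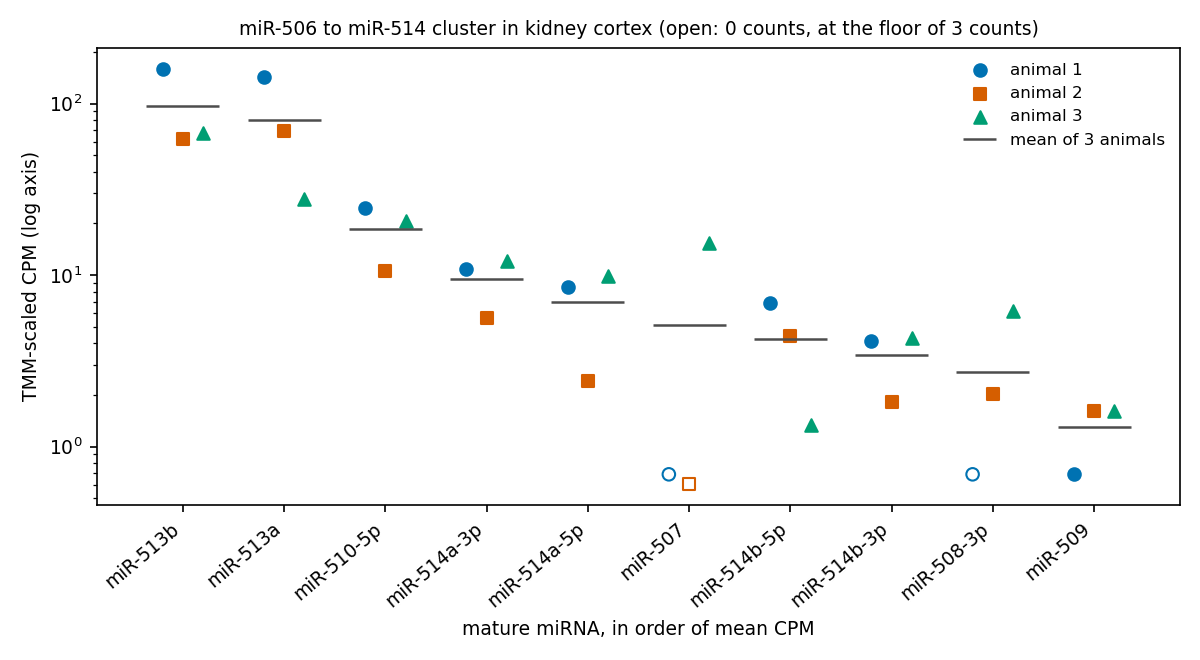
TMM-scaled CPM (log axis) of each cluster miRNA in each animal; filled symbols are measured values, open symbols mark libraries with 0 counts and stand at the floor of 3 counts, and bars are means over 3 animals. miR-513b and miR-513a are highest in animal 1, while miR-507 is at 15.3 in animal 3 and at 0 counts in the other animals.

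miR-507, miR-508-3p, miR-509 and miR-510-5p were lower. miR-510-5p, the largest of these, had 107, 52 and 77 counts, or 24.6, 10.5 and 20.7 TMM-scaled CPM, a mean of 18.6 ± 7.27 (SD, n = 3). Animal 2 was low, at 0.427 of animal 1 (exact 95% counting interval 0.301 to 0.600), and animals 1 and 3 were within counting error with a ratio of 1.19 (0.878 to 1.61). miR-509 had 3, 8 and 6 counts, a mean of 1.31 ± 0.534 TMM-scaled CPM (SD, n = 3). At this depth no difference between animals was detectable for miR-509, whose mean count of 5.67 kept it out of the tests.

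miR-507 had 0, 0 and 57 counts in animals 1, 2 and 3. Its 15.3 TMM-scaled CPM in animal 3 was at least 22.2-fold higher than in animal 1 and at least 25.3-fold higher than in animal 2, where 3 counts per library were taken as the floor. It was the only one of the 432 names with 0 counts in 2 libraries. Among the 391 miRNAs whose mean count was 10 or more it was 1 of 2 with 90% or more of their counts from 1 animal. miR-508-3p had 0, 10 and 23 counts, or 2.02 TMM-scaled CPM in animal 2 and 6.18 in animal 3. Its level in animal 3 was at least 8.97-fold higher than in animal 1 and 3.06-fold higher than in animal 2 (exact 95% counting interval 1.40 to 7.20). These were the only 2 names in the table at 0 in animal 1, whereas 5 names, none from the cluster, were at 0 in animal 3. Without animal 3 the mean of miR-508-3p was 1.04 TMM-scaled CPM, against 2.73 with it. Both miRNAs reached the mean count of 10 only through the animals where they were high, so a difference between libraries was built into their being tested.

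The miR-514 family was the only one with both arms of its hairpins listed. miR-514a is known in melanoma cells as a repressor of the tumour suppressor NF1. miR-514a-3p had 47, 28 and 45 counts, or 10.8, 5.65 and 12.1 TMM-scaled CPM, and miR-514a-5p had 37, 12 and 37 counts, or 8.50, 2.42 and 9.94. Both arms were low in animal 2 and alike in animals 1 and 3. The ratio of animal 3 to animal 2 was 2.14 for the 3p arm (exact 95% counting interval 1.31 to 3.56) and 4.10 for the 5p arm (2.09 to 8.64). The other hairpin was lower still. mfa-miR-514b-3p had 18, 9 and 16 counts, or 4.14, 1.82 and 4.30 TMM-scaled CPM, with animal 2 again the lowest. mfa-miR-514b-5p had 30, 22 and 5 counts, or 6.89, 4.44 and 1.34 TMM-scaled CPM. It was low in animal 3, where animal 1 exceeded it 5.13-fold (1.97 to 16.9) and animal 2 exceeded it 3.31-fold (1.22 to 11.2). miR-514b-5p thus departed from the other 3 strands of the family, which were all lowest in animal 2. The sum of the red cell names of miR-451 and miR-486 was lowest in animal 2 as well, at 4392, 3950 and 5439 CPM in animals 1, 2 and 3. Nearly all of it was miR-451, with a mean count of 19496 against 159 for miR-486-5p and 22.7 for miR-486-3p. The part of red cells in the miR-514 levels was not tested.

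The arms were compared within libraries, where scaling plays no part. The 5p strand took 44.0% of the miR-514a counts in animal 1, 30.0% in animal 2 and 45.1% in animal 3, with Wilson 95% intervals of 33.9 to 54.7, 18.1 to 45.4 and 34.8 to 55.9. The 3p arm of miR-514a had more counts in all 3 animals, with a mean excess of 0.51 ± 0.39 (SD) on the log2 scale. A two-sided exact permutation test that flips the sign of each animal's difference gave p = 0.25, and 3 animals cannot give less. For miR-514b the 5p strand took 62.5% in animal 1, 71.0% in animal 2 and 23.8% in animal 3, with intervals of 48.4 to 74.8, 53.4 to 83.9 and 10.6 to 45.1. The dominant arm of miR-514b was 5p in animals 1 and 2 and 3p in animal 3. These shares rest on 48, 31 and 21 counts.

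Fisher's exact test of the arm counts was run for each pair of libraries over 122 hairpins, with Benjamini-Hochberg adjustment over all hairpins and pairs. Of these hairpins 68.0% differed in at least 1 pair of libraries and 7.38% did not keep the same dominant arm. Both miR-514 hairpins are among the 14 with a combined mean count from 10 to below 100. Of these 14, 21.4% (3 hairpins) differed in at least 1 pair and 42.9% (6 hairpins) did not keep the same dominant arm, with miR-514b counted in both. Not keeping the same dominant arm, which needs no called difference, was thus common at this depth, and a called difference was less so. miR-514b was 1 of the 2 cluster hairpins tested and differed between animals 1 and 3 (adjusted Fisher's exact p = 0.0102) and between animals 2 and 3 (adjusted p = 0.00413 by the same exact test). Between animals 1 and 2 the adjusted exact p was 0.588. For miR-514a the adjusted exact p values were 0.266 for animals 1 and 2, 1 for animals 1 and 3, and 0.203 for animals 2 and 3. Without animal 3 the lowest adjusted exact p of miR-514b was 0.581, so its call rests on that library. The change of the miR-514b arm was already known when it was tested, and the test describes these libraries. Of the counts of the 2 hairpins together, miR-514a took 63.6% in animal 1, 56.3% in animal 2 and 79.6% in animal 3, with Wilson 95% intervals of 55.2 to 71.3, 44.8 to 67.3 and 70.8 to 86.3.

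**Figure D3:**
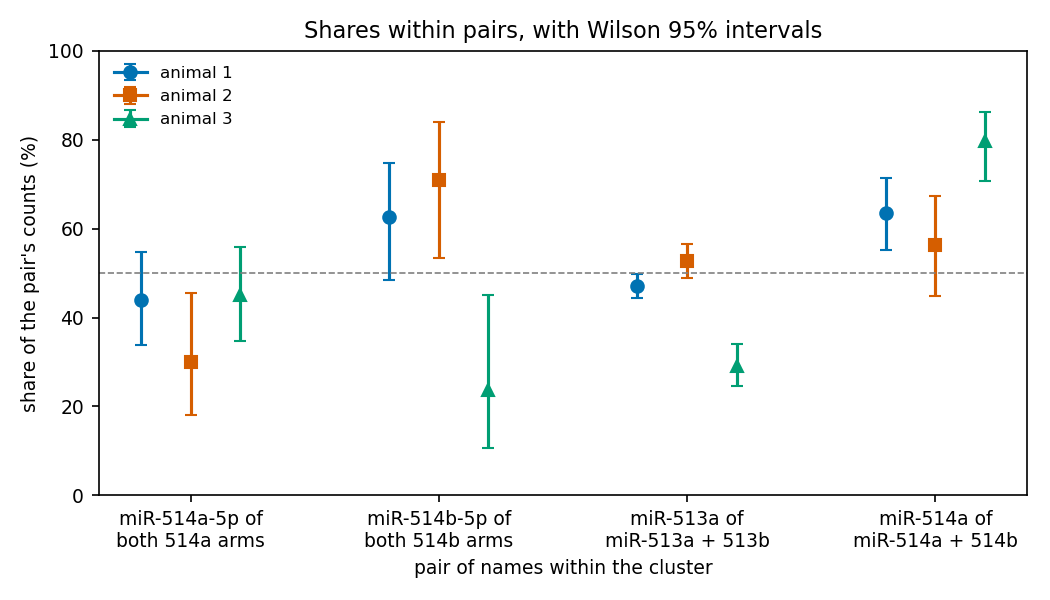
Share (%) of the first name in 4 pairs of cluster names, for each animal, with Wilson 95% intervals as bars and 50% dashed. The miR-514b-5p share is 23.8% in animal 3 against 62.5% and 71.0% in animals 1 and 2, and the miR-513a share is 29.2% in animal 3 against 47.1% and 52.7%.

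The order of the members by mean CPM was miR-513b, miR-513a, miR-510-5p, miR-514a-3p, miR-514a-5p, miR-507, miR-514b-5p, miR-514b-3p, miR-508-3p and miR-509, from rank 180 to rank 426 of 432. The median of the members' mean CPM was 5.82, against 43.5 for all listed miRNAs. Of the 9 neighbouring pairs in this order, 3 kept their order in all 3 animals. These were miR-513a above miR-510-5p, by 1.83 ± 1.24 (SD) on the log2 scale, miR-510-5p above miR-514a-3p, by 0.88 ± 0.21, and miR-514a-3p above miR-514a-5p. For each of them the same exact permutation test gave p = 0.25. The other 6 pairs changed order between animals, among them miR-513b and miR-513a, whose mean log2 difference of 0.42 was smaller than its SD of 0.74. Their order is not resolved by these animals. Without animal 3, 5 pairs kept their order.

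Each miRNA was then tested for a difference between the libraries beyond counting error, with a chi-square test on its counts given the TMM-scaled library sizes, adjusted over the 391 miRNAs whose mean count was 10 or more. The test compares libraries and sets separate animals against counting error, and it called 80.6% of all miRNAs. Of the 10 cluster members 9 were tested and 8 were called. Among the 132 miRNAs with a mean count from 10 to below 100 it called 53.8%, and 6 of the 7 members in that range. Without miR-507 and miR-508-3p, which reached the minimum only through the animals where they were high, 4 of 5 members in that range were called, against 52.7% of the miRNAs there with no 0 count. The adjusted chi-square p was 5.57e-74 for miR-513a, 1.98e-60 for miR-513b, 3.08e-31 for miR-507, 3.08e-07 for miR-508-3p, 2.01e-06 for miR-510-5p, 3e-05 for miR-514a-5p, 0.00123 for miR-514b-5p and 0.00481 for miR-514a-3p. For miR-514b-3p it was 0.082, and its 18, 9 and 16 counts were not separated at this depth.

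Single animals decided many of these calls. miR-513b was not called without animal 1, miR-510-5p and both arms of miR-514a were not called without animal 2, and miR-514b-5p was not called without animal 3. Members called by the same chi-square test numbered 7 of 9 without animal 1, 5 of 9 without animal 2 and 5 of 7 without animal 3. Calls also fell over all miRNAs, to 255 of 391, 291 of 386 and 237 of 400 in the same order. Among the members called without animal 1 and without animal 2 are miR-507 and miR-508-3p, which were not tested without animal 3. Exact binomial tests of each pair of libraries, adjusted over all miRNAs and pairs, called 83.4% of all miRNAs and 8 of the 9 members in at least 1 pair. miR-513a was called in all 3 pairs, with an adjusted exact p of 1.08e-27 for animals 1 and 2, 1.09e-73 for animals 1 and 3, and 1.18e-17 for animals 2 and 3. miR-508-3p was called in all 3 pairs too, with adjusted exact p of 0.00404, 4.45e-08 and 0.00413. Unlike miR-513a, it reached the minimum count only through the animals where it was high. Its calls, like that of miR-507, are therefore no independent result. In the pairs of animals 1 and 3, the adjusted exact p was 0.337 for miR-510-5p, 0.669 for miR-514a-3p and 0.629 for miR-514a-5p.

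By size, the highest animal exceeded the lowest more than 2-fold in 39.9% of the 391 miRNAs and in all 9 tested members, of which miR-507 and miR-508-3p had to differ in order to be tested. Over miRNAs with counts in every library, the 7 remaining members had a median span of 2.58-fold, against 1.69-fold for 388 miRNAs, 39.4% of them past 2-fold. Low counts widen spans, and at a mean count from 10 to below 100 the 5 remaining members had a median span of 2.37-fold, against 2.13-fold for 129 miRNAs, 71 of them past 2-fold. The widest of the 7 were miR-513a, 5.15-fold and in place 35 of 391, and miR-514b-5p, 5.13-fold and in place 36. The narrowest was miR-514a-3p with 2.14-fold, in place 132, and its span was 1.91-fold with library totals. It was 1.80-fold in the authors' normalized table, which does not correct for library totals. Past 2-fold were 7 of 9 members without animal 1, 5 of 9 without animal 2 and 5 of 7 without animal 3. Over all miRNAs these were 92 of 391, 124 of 386 and 35 of 400. The members' numbers without animal 1 and without animal 2 include miR-507 and miR-508-3p, which were not tested without animal 3.

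The coefficient of variation between animals was 0.730 for miR-513a and 0.573 for miR-513b, where counting alone would give 0.0530 and 0.0489. Nearly all miRNAs this abundant differ between animals beyond counting error (244 of 259 with a mean count of 100 or more), and their median coefficient was 0.241. Of these 259, 15 reached the coefficient of miR-513a and 29 that of miR-513b, each member counted in its own number. For miR-514b-3p the coefficient was 0.406 where counting would give 0.264, and for miR-509 it was 0.409 where counting would give 0.420.

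**Figure D4:**
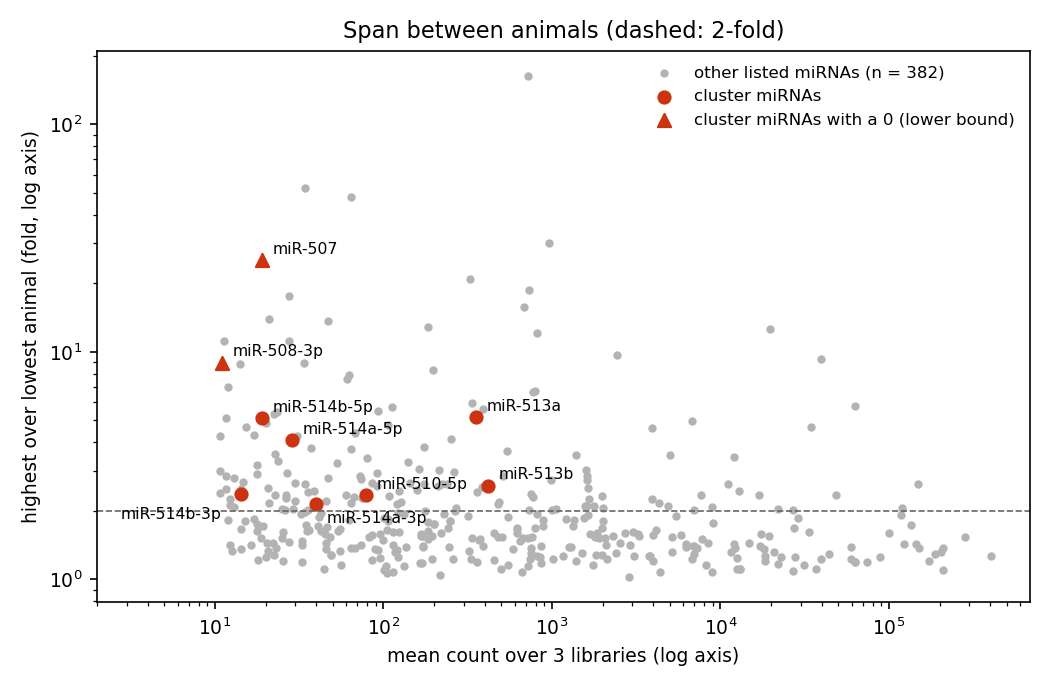
Highest over lowest animal (fold, log axis) against the mean count (log axis) for 391 miRNAs whose mean count was 10 or more; the 9 tested cluster miRNAs are in red, triangles mark lower bounds where a library had 0 counts, and the dashed line is 2-fold. All 9 lie above the line, between 2.14-fold for miR-514a-3p and at least 25.3-fold for miR-507, where the median of all miRNAs is 1.71-fold; miR-507 and miR-508-3p reached the minimum only through the animals where they were high.

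The members did not move as a block across animals. Of the 9 tested, 4 were highest in animal 1 (31.2% of all 391 miRNAs), 0 in animal 2 (29.2%) and 5 in animal 3 (39.6%), and with library totals miR-514b-3p moved from animal 3 to animal 1. The lowest level was in animal 2 for 5 members (23.0% of all miRNAs), in animal 3 for 2 (41.9%) and in animal 1 for 1, and with library totals miR-513b moved from animal 2 to animal 3. miR-507 was at 0 in both animals 1 and 2. The order animal 3, animal 1, animal 2 was shared by miR-514a-3p, miR-514a-5p and miR-514b-3p, and was the order of 14.1% of all miRNAs. miR-513a and miR-514b-5p were both highest in animal 1 and lowest in animal 3, as were 22.3% of all miRNAs. miR-513b and miR-510-5p had the order animal 1, animal 3, animal 2, found in 8.95%. With library totals the orders of miR-513b and miR-514b-3p differed from these. Of their positions, only that of animal 1 for miR-513b and that of animal 2 for miR-514b-3p held under TMM, DESeq2 size factors and library totals alike.

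Other miRNAs of the human X chromosome were taken from a fixed list of 35 stems, of which 28 were listed here under 46 names. Their median mean level was 160 CPM, against 5.82 CPM for the cluster, and the highest was miR-424-5p, a miR-15 family member that restrains the cell cycle, with 11305 CPM. Of the 42 whose mean count was 10 or more, 38 (90.5%) differed between libraries by the chi-square test, against 80.6% of all 391 miRNAs. More than 2-fold was spanned by 17 (40.5%), against 39.9% of all, with a median span of 1.58-fold against 1.71-fold. Low counts widen spans, so these are not set against the spans of the less abundant cluster. Animal 2 was the highest for 14 of these 42, for 29.2% of all miRNAs and for 0 of the 9 cluster members. The lowest of the 42 in mean CPM, miR-934-3p, had 10, 8 and 28 counts.

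Profiles like those of the members were sought by the Euclidean distance over the 3 libraries of log2(TMM-scaled CPM + 1), which weighs level and shape together and has no error with 3 points. The nearest to miR-513b was miR-369-3p, with 740, 395 and 294 counts at a distance of 0.435. The nearest to miR-513a was miR-299-3p, with 518, 408 and 74 counts at 0.583. miR-514b-5p was nearest to miR-431, with 34, 20 and 6 counts at 0.249, the closest match of any member. miR-514b-3p was nearest to miR-376a-2-5p at 0.413, miR-514a-3p to miR-485-3p at 0.442, miR-510-5p to miR-203 at 0.501, miR-508-3p to miR-1226 at 0.649 and miR-514a-5p to miR-7189-5p at 0.895. miR-507 had no close match outside the cluster: its nearest there was also miR-1226, with 2, 13 and 19 counts, at a distance of 2.40. At the level of miR-507 the neighbours in mean CPM were miR-374a-3p, with 20, 21 and 21 counts, and miR-129-1-3p, with 17, 23 and 21, both even across the animals.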

How the data were processed

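Small RNA of kidney cortex was measured in 3 libraries, 1 group. The authors mapped reads to M. fascicularis miRNAs with 0 mismatches and deposited whole-number read counts, keeping miRNAs with a minimum of 15 reads, per the file headers; the smallest sum over the libraries was 15. The second deposited table, a signal normalized by edgeR per the file headers, served only as an alternative scaling. Its library sums were 0.989, 0.951 and 1.06 times the raw sums in animals 1, 2 and 3. These factors mirror the TMM factors alone, so library totals are not corrected for in it. The aligner and miRNA release are not given in the sources used here. CPM, TMM factors (edgeR 4.0.16, R 4.3.3), chi-square tests of homogeneity, exact tests (scipy 1.17.1) and Wilson intervals were computed here from the raw counts over all 432 names, with Benjamini-Hochberg adjustment and a threshold of 0.05. The tests were checked on simulated data. Titles give the animal numbers. P-values of the chi-square, exact binomial and Fisher's tests set differences between these libraries against counting error and depend on depth. Those of the permutation test concern differences between members within animals. Named beside the members are the 3 nearest profiles of each from outside the cluster (the first is printed), neighbours in level, and X-linked and marker lists. Members, lists and tests were chosen with earlier results of these data known. Alternatives were DESeq2 1.42.0 size factors, totals, the authors' signal, other minimums, pseudocounts and leaving out each animal. The exact binomial tests of pairs were added after the data were seen. The seed comparison planned was not made, since sequences were not used here.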

Additional observations from a re-analysis of the deposited data

How the results depend on the processing

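Of 55 values recomputed under an alternative, 11 counts changed by over 1.5 times. Of 60 recomputed member levels, 0 changed by over the SD between animals. The mean of 2 of 3 animals can hardly move that far, so this says little of stability: without animal 1 the mean of miR-513a was 48.1 in place of 79.8 TMM-scaled CPM, and that of miR-513b 64.2 in place of 96.4. The 8 cluster miRNAs called by the chi-square test became 2 at a mean count of at least 100, since only miR-513a and miR-513b reach it, and 5 to 7 when an animal was left out. Over all miRNAs, the 315 called became 245 at that minimum and 237 to 291 with an animal left out. The 9 cluster miRNAs spanning more than 2-fold became 2 at that minimum and 5 to 7 without an animal. The 8 called and the 9 past 2-fold include miR-507 and miR-508-3p, as do the numbers without animal 1 and without animal 2. Both reached the minimum for testing only through the animals where they were high. Over all miRNAs, the 156 past 2-fold became 82 at that minimum and 35 to 124 with an animal left out (35 without animal 3, 92 without animal 1), where fewer animals must give narrower ranges. Hairpins differing in arm share fell from 83 to 41 without animal 3 (41 to 71 over the animals left out). Neighbouring members in the same order numbered 3, and 4 to 5 with an animal left out. miR-514b lost its call only without animal 3. The sum of the cluster ranged over the scalings within its SD. No paired analysis was possible because there is 1 group. The comparison of seeds was not run. Depth limits miR-509 most, with 3 to 8 counts per library, then miR-508-3p with 0 to 23 and miR-514b-3p with 9 to 18.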
